A study of Mus musculus with 12 samples.

Results

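The 40S subunit is the part of the cytosolic ribosome that binds mRNA and finds the start codon, and the genes described here code for its proteins. They were taken as the rows of a mouse count table for 29 listed symbols of 40S protein genes, with the paralogue Rps27l and with no pseudogenes, and all 29 were found among 55421 rows. The tissue was small intestine, in 3 groups of 4 RNA sequencing libraries. The first group was labelled wild type (WT, day 7). The second carried VilCreER and Apc fl/fl (Apc, day 4) and the third VilCreER, Apc fl/fl and Eif3h fl/fl (Apc Eif3h, day 4), so both recombined groups share the Apc deletion. VilCreER is a tamoxifen-activated Cre recombinase under the villin promoter, which drives expression in gut epithelium and not in the other cells of the tissue. The treatment text, given for all libraries, states 2 injections of tamoxifen at 80 mg/kg, 24 hours apart, and harvest at 7 days, which conflicts with the day 4 labels. Against WT, genotype and labelled day cannot be told apart. WT and Apc held 3 males and 1 female each and Apc Eif3h 4 males. The sources used here give neither strain nor age, and do not say whether WT carried the Cre. The labels do not say that each library of a group came from a separate mouse. WT and Apc each held both sexes and so more than 1 mouse. The p-values measure the spread between these libraries, which may be technical in part, and in Apc Eif3h as a whole.

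The small subunit scans mRNA together with initiation factors, of which eIF3, the complex that holds the Eif3h product, binds it directly. Its proteins are made in near-equal numbers and are assembled onto ribosomal RNA in the nucleolus by dedicated assembly factors. Most vertebrate ribosomal protein mRNAs begin with a 5′ terminal oligopyrimidine (TOP) tract, a C followed by a run of C and T (U in RNA), through which mTORC1 and LARP1 control their translation. In intestine, loss of Apc releases beta-catenin and drives crypt-like growth, in which MYC raises ribosome production.

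The start regions of the members are shown because ribosomal protein genes are known for the TOP tract, which only some of these windows hold. Each run has 10 bases before and 20 after the annotated RefSeq start (build GRCm38.p6), 5′ to 3′ on the gene's strand. Capitals mark the longest run of a C followed by at least 4 C or T that lies within 10 bases of the start or reaches into that window.
Rps6 (chr4:86857348-86857377, minus strand): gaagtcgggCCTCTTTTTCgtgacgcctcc
Rps10 (chr17:27635225-27635254, minus strand): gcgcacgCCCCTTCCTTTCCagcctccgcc
Rps18 (chr17:33955646-33955675, minus strand): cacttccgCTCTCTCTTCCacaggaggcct
Rps27 (chr3:90213629-90213658, minus strand): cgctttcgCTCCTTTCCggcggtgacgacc
Rps27l (chr9:66946076-66946105, plus strand): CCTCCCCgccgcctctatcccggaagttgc
Fau (chr19:6057937-6057966, plus strand): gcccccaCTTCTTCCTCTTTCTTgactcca
Rps2 (chr17:24720053-24720082, plus strand): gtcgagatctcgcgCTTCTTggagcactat
Rpsa (chr9:120127756-120127785, plus strand): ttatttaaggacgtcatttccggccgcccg
Rps3 (chr7:99483690-99483719, minus strand): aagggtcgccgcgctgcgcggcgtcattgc
The tract spans the annotated start in Rps6, Rps10, Rps18, Rps27 and Fau, lies upstream of it in Rps27l and a few bases downstream in Rps2, and is not in these windows of Rpsa and Rps3. RefSeq promoter entries were matched for 25 of the 29 members. Rps14, Rps20, Rps27a and Rps29 had no entry. A gene was counted if any of its entries held such a tract on the gene's strand (for Rps19, entry 3 alone). Within 10 bases of the start it was found in 16 of 25 members (64%) and in 20 of 34 large subunit genes (58.8%). It was found there in 11 of 43 genes for 40S assembly factors (25.6%) and in 9147 of all 27025 genes (33.8%). Exactly at the annotated start it was found in 7 of 25 members (28%) and in 813 of all genes (3.01%). A match is a description of these letters, since the annotated start need not be the one used in this tissue.

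Library totals were 10483112 to 21298301 counts, of which the members held 57799 to 228835. Levels are given as CPM, counts scaled to the size of the library, here after TMM scaling. All 29 members passed the filter on low counts, with 17394 genes in all. The check of the targeted gene went with the labels. Eif3h stood at 142.2, 126.1, 133.7 and 135.4 CPM in WT, at 168, 164.2, 158.4 and 175.1 CPM in Apc, and at 28.27, 43.13, 54.6 and 25.94 CPM in Apc Eif3h, replicates 1 to 4. Its log2 fold change was -2.13 (SE 0.19) in Apc Eif3h against Apc (adjusted p = 0.000405, edgeR quasi-likelihood test with Benjamini-Hochberg adjustment, as for every adjusted p across genes here). The enterocyte markers that define the tissue were present in every group, with none of 10 at 0. In whole tissue, fewer cells of a type and less RNA per cell cannot be told apart.

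Libraries within a group differed in a way most members shared. WT replicate 2 was the lowest WT library for 27 of 29 members and Apc replicate 3 the lowest Apc library for 27. Apc Eif3h replicate 3 was the lowest of its group for 22 members and replicate 4 for 7, and replicate 2 was the highest for 17. Eif3h was highest in replicate 3 (54.6 CPM), then in replicate 2 (43.13 CPM), and lowest in replicate 4 (25.94 CPM). The order of Eif3h over these libraries was thus not that of the members, in either direction. Relative to the WT mean, the median member deviated by 0.98 to 1.55 (log2) over the Apc Eif3h libraries, by 0.42 to 0.71 over the Apc libraries and by -0.22 to 0.18 over the WT libraries. The coefficient of variation of the median member was 11.9% in WT, 8.88% in Apc, with 16.6% in Apc Eif3h, beside 10.1%, 8.09% and 11.7% for all genes at or above the lowest member's level. Rps29 and Rps12 varied most, with coefficients of 49.5% and 41.8% in Apc Eif3h.

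**Figure D1:**
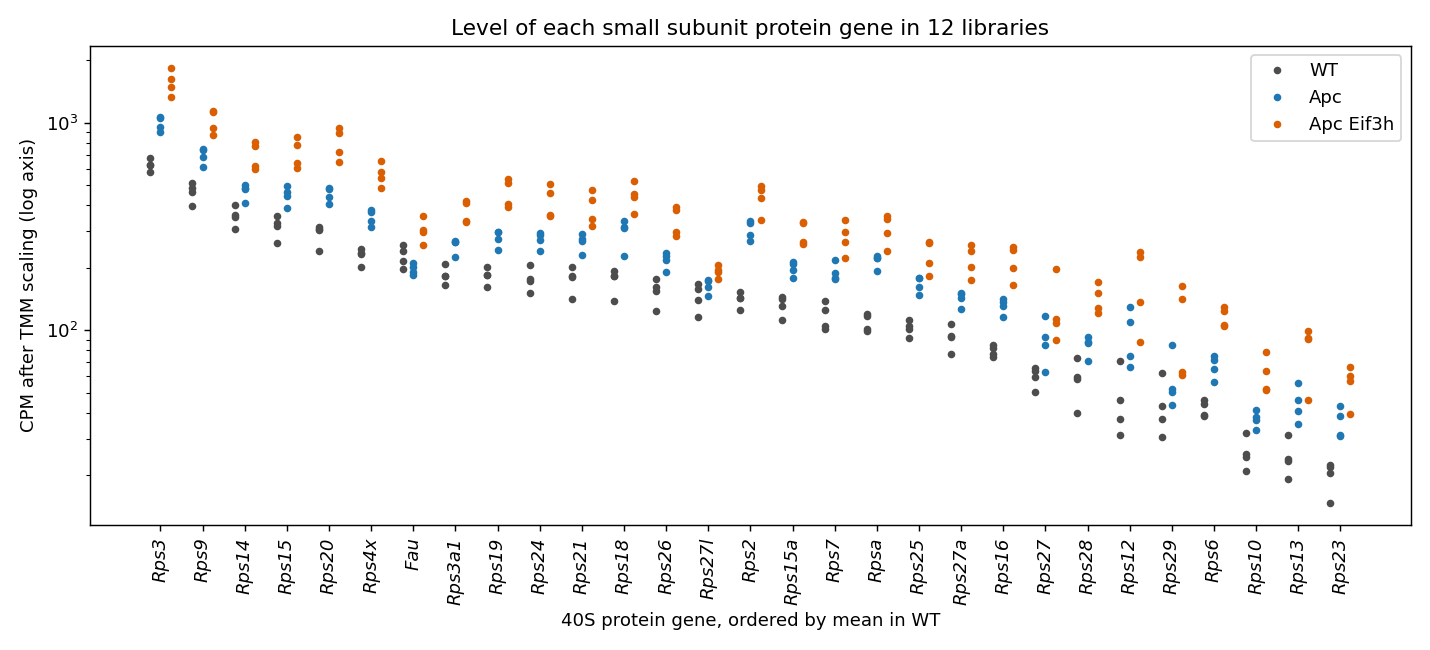
Level of each of the 29 genes in each of the 12 libraries, based on CPM after TMM scaling. Nearly all genes step up from WT to Apc and again to Apc Eif3h, Fau and Rps27l least. Apc replicate 3 and Apc Eif3h replicate 3 are the lowest libraries of their groups for most genes.

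The first question was how 40S protein genes differ between intestine with and without Apc deficiency. They were higher in Apc for 25 of 29 members and lower for 0, with a median fold of 1.52 (log2 0.61, range -0.21 to 1.12). Of all genes tested 27.7% were called higher, 24.1% lower and 51.8% in either direction, and the median log2 fold change was -0.01. At an unadjusted p below 0.05 the edgeR test also gave 0 lower members, when 27.5% of all genes were lower, and DESeq2 called 0 lower. The 4 not called were Rps27 (adjusted p = 0.0508), Fau (0.124), Rps27l (0.201) and Rps29 (0.318). In 23 members every Apc library was above every WT library, against 26.7% of all genes.

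The second question was how they differ when Eif3h is deleted on top of Apc. Again 25 of 29 members were higher in Apc Eif3h against Apc and 0 were lower, with a median fold of 1.54 (log2 0.62, range 0.23 to 0.89). Of all genes 4.27% were called higher, 2.78% lower and 7.05% in either direction, and the median log2 fold change was -0.00185. The edgeR test gave 0 lower members at an unadjusted p below 0.05, when 11% of all genes were lower, and DESeq2 called 0 lower. The 4 not called were Rps29 (adjusted p = 0.135), Rps12 (0.14), Rps27 (0.206) and Rps27l (0.23). In 24 members the Apc Eif3h libraries were all above the Apc libraries, against 7.89% of all genes. The number called rests on which libraries are used. Without Apc replicate 3 it was 10, when 2.30% of all genes were called in either direction. It was 15 without Apc Eif3h replicate 2 (3.75% of all genes) and 16 without Apc Eif3h replicate 1 (3.94%). With male libraries only it was 14 (3.70%), and without Apc Eif3h replicate 3 it was 26 (9.99%). Every member stayed above 0 in all of these fits, and Rps3, Rps3a1, Rps4x, Rps6, Rps15, Rps15a, Rps16, Rps19, Rps20 and Fau were called in each of the 16 alternatives run. Rps7 and Rps18 were called in 8 of them, Rps21 in 6, Rps9 in 11 and Rps28 in 13, while Rps10, Rps14, Rps24, Rps26 and Rps27a were called in 14 or 15. Both comparisons use the same Apc libraries, so their fold changes are given side by side and were not correlated.

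All 29 members were higher in Apc Eif3h against WT, with a median fold of 2.40 (log2 1.26) and a range of 1.32 to 3.71. Of all genes 29.8% were called higher, 28.1% lower and 57.8% in either direction. The libraries separated the groups for 28 members, Rps29 being the exception, against 26.9% of all genes.

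**Figure D2:**
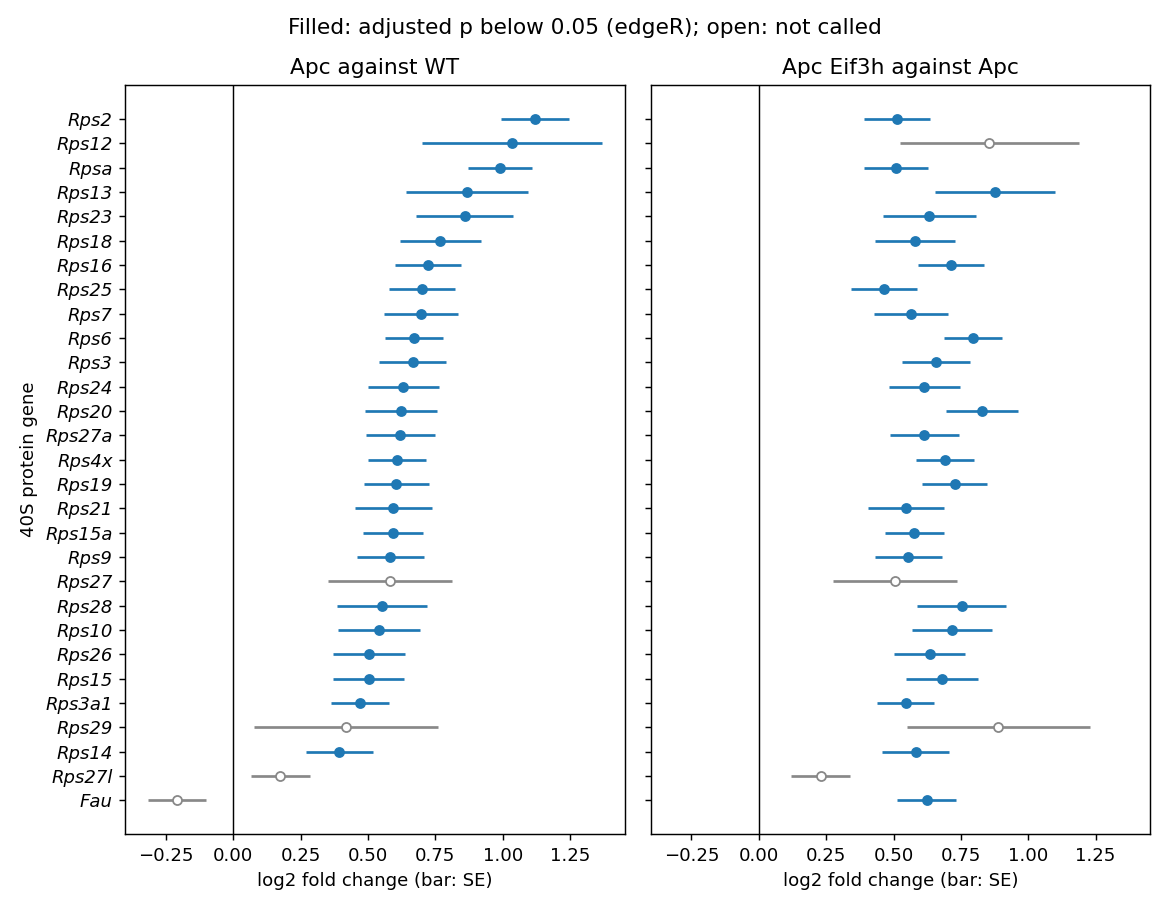
log2 fold change with its standard error (bars) of each gene in Apc against WT (left) and Apc Eif3h against Apc (right), ordered by the left panel. Filled points have an adjusted p below 0.05. Rps2, Rps12 and Rpsa lead on the left and Fau is the single point below 0 there (above 0 when scaled by library totals only), while on the right all 29 points lie above 0.

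As a share of all counts, the 29 genes made up 0.432% ± 0.0279 (SD, n = 4) in WT, 0.766% ± 0.0717 in Apc, with 1.16% ± 0.212 in Apc Eif3h. No library of a group fell within the range of another, with 0.396 to 0.457%, 0.674 to 0.826% and 0.902 to 1.36%. The 47 large subunit genes went from 0.565% ± 0.0319 to 1.05% ± 0.0961 and 1.57% ± 0.280. Counts of small over large subunit genes stood at 0.765 ± 0.0215 in WT, 0.728 ± 0.00896 in Apc, with 0.739 ± 0.0149 in Apc Eif3h. Shares amount to scaling by library totals only, which gave a median log2 fold change of all genes of 0.22 in Apc against WT. They are given as a description without a test.

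**Figure D3:**
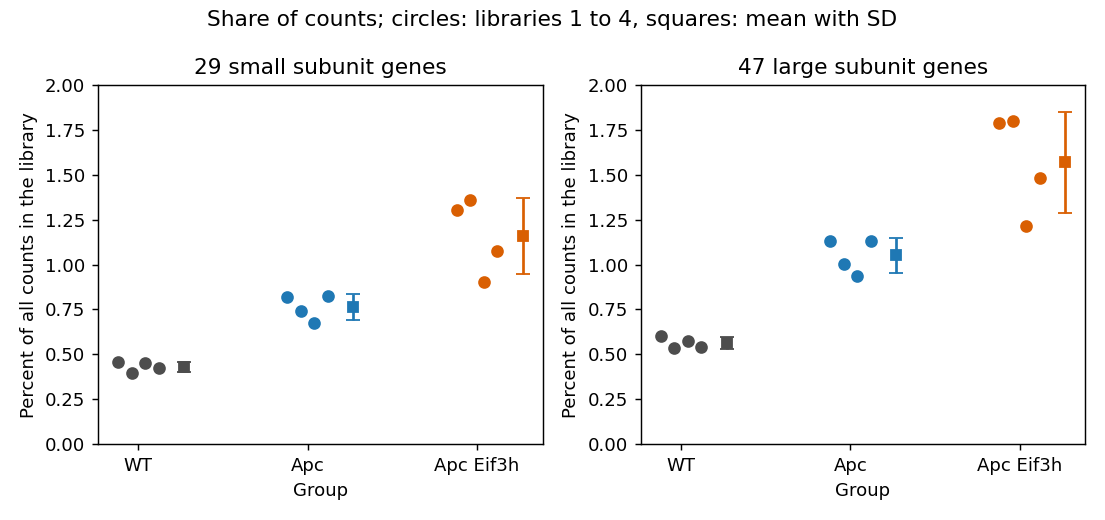
Percent of all counts in each library (circles) that fell on the 29 small subunit genes (left) and 47 large subunit genes (right), with group mean and SD (squares and bars). Small subunit shares are 0.396 to 0.457% in WT, 0.674 to 0.826% in Apc, with 0.902 to 1.36% in Apc Eif3h, and the large subunit panel has the same order of groups.

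The subunit has a head and a body with a platform. Of the 12 members whose proteins sit in the head, 11 rose in Apc against WT (median log2 0.62) and 10 in Apc Eif3h against Apc (median 0.72). Of the other 17, in the body and platform, 14 and 15 rose, with medians of 0.59 and 0.58. The ranges of the 2 regions overlapped in each comparison.

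Several members of the body line the path of the mRNA. Rps2 (chromosome 17, 24718116 to 24721929) encodes a protein of the mRNA entry channel. It stood at 152.2, 124.5, 143 and 142.5 CPM in WT, at 328.9, 287.7, 269.1 and 336.9 CPM in Apc, and at 497, 474.6, 337.4 and 435.1 CPM in Apc Eif3h. The WT libraries lie far below the rest, and the lowest Apc Eif3h library sits just above the highest Apc one. Rps2 had the highest fold change of all members in Apc against WT, at 2.17 (log2 1.12, SE 0.125, adjusted p = 3.25e-05), and a fold of 1.43 in Apc Eif3h against Apc (log2 0.51, adjusted p = 0.0289), the latter called in 8 of 16 alternatives. Rpsa (chromosome 9, 120127689 to 120132369), also known as the laminin receptor, encodes a protein at the exit side of the mRNA path. Its values were 119.2, 98.7, 116.5 and 101.5 CPM in WT, 227.1, 223, 192.4 and 223.5 CPM in Apc, and 353.3, 343, 241.6 and 294.2 CPM in Apc Eif3h. Groups did not overlap, and replicate 3 was the lowest library in both recombined groups. Rpsa rose 1.99-fold in Apc against WT (log2 0.99, SE 0.12, adjusted p = 5.09e-05) and 1.42-fold in Apc Eif3h against Apc (log2 0.51, SE 0.119, adjusted p = 0.0251), the latter called in 9 of 16 alternatives.

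Rps3, counted in the head, forms part of the entry channel and also has a DNA repair role. It rose in both steps. Rps3 went from 626.4 ± 40.7 CPM (SD, n = 4) in WT to 993.4 ± 80.5 in Apc, with 1567 ± 215 in Apc Eif3h, with folds of 1.59 and 1.58 (adjusted p = 0.0009 and 0.0106). Rps23, whose protein reaches into the decoding centre, was among the scarcer members per length and rose 1.81-fold and 1.55-fold (adjusted p = 0.0017 and 0.0472). The second Rps23 call held in 4 of 16 alternatives and was lost, among others, with RLE factors (adjusted p = 0.0521) and the replicate block (0.0611), the adjusted p ranging from 0.00851 to 0.145. Its Apc replicate 4, at 42.97 CPM, was above Apc Eif3h replicate 3, at 39.40 CPM.

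Rps14 and Rps26 encode proteins of the platform near the exit of the mRNA path. Human RPS14 is the gene behind the anaemia of the 5q deletion syndrome. Rps14 stood at 351.2, 307.5, 402.4 and 360.1 CPM in WT, at 498.5, 478.2, 408.4 and 481.5 CPM in Apc, and at 772.8, 805.8, 614.8 and 600.6 CPM in Apc Eif3h. The groups were apart, by little between WT and Apc, where Rps14 was the lowest called member. Its log2 fold change was 0.39 in Apc against WT (SE 0.124, adjusted p = 0.0184) and 0.58 in Apc Eif3h against Apc (adjusted p = 0.0178). The first call was lost without WT replicate 2 (adjusted p = 0.0569), without Apc replicate 1 (0.0514) and with male libraries only (0.0884). Rps26, loaded onto the subunit by the chaperone TSR2, stood at 154.1, 124.1, 176 and 160.9 CPM in WT. It was at 228.1, 218.2, 191 and 234.5 CPM in Apc and at 393.2, 380.7, 283.8 and 295.5 CPM in Apc Eif3h, with no overlap between groups. Rps26 rose 1.42-fold and then 1.55-fold (adjusted p = 0.00709 and 0.0158).

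Rps6 (chromosome 4, 86854660 to 86857412) encodes the protein that S6 kinases phosphorylate downstream of mTORC1. Its values were 46.1, 38.52, 43.92 and 39.13 CPM in WT, 75.07, 64.86, 55.92 and 71.36 CPM in Apc, and 129.5, 123.7, 106.3 and 104.2 CPM in Apc Eif3h. The 3 groups formed separate steps. Rps6 rose 1.59-fold in Apc against WT (log2 0.67, SE 0.109, adjusted p = 0.000339) and 1.74-fold in Apc Eif3h against Apc (log2 0.80, SE 0.108, adjusted p = 0.00266), the smallest p of all members in the latter comparison. Rps4x, on the X chromosome, went from 229.4 ± 19.5 to 349.3 ± 30.1 and 563.6 ± 69.7 CPM (n = 4 each; folds of 1.52 and 1.61, adjusted p = 0.000631 and 0.00497). Rps7, Rps9, Rps15a, Rps21, Rps24 and Rps3a1, all of the body, rose 1.39-fold to 1.62-fold in Apc against WT and 1.46-fold to 1.53-fold in Apc Eif3h against Apc.

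Rps13 is a body protein that binds ribosomal RNA early in assembly. Its values were 23.32, 19.16, 23.79 and 31.39 CPM in WT, 46.04, 40.92, 35.46 and 55.69 CPM in Apc, and 90.44, 91.76, 46.29 and 98.48 CPM in Apc Eif3h. Apc Eif3h replicate 3 fell inside the Apc range, and the other 3 were far above it. Rps13 rose 1.82-fold in Apc against WT (adjusted p = 0.00677) and 1.84-fold in Apc Eif3h against Apc (log2 0.88, SE 0.223, adjusted p = 0.0348), the latter called in 7 of 16 alternatives.

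In the head, Rps19 encodes the protein most often mutated in Diamond-Blackfan anaemia, an inherited failure of red cell production. It stood at 184.4, 161.9, 201.8 and 185.2 CPM in WT, at 298.5, 275.5, 243.4 and 298.4 CPM in Apc, and at 510.9, 537.4, 391.1 and 407 CPM in Apc Eif3h. All libraries of a group lay above those of the group before. Rps19 rose 1.52-fold (log2 0.61, adjusted p = 0.00124) and then 1.66-fold (log2 0.73, adjusted p = 0.0063). Rps10 and Rps20 encode head proteins that ZNF598 ubiquitinates on collided ribosomes. Rps20 went from 292.3 ± 34.4 CPM in WT to 449.9 ± 36.7 in Apc, with 798.7 ± 138.7 in Apc Eif3h (n = 4 each), a rise of 1.78-fold in the last step (log2 0.83, SE 0.134, adjusted p = 0.00597). Rps10 rose 1.46-fold and 1.64-fold (adjusted p = 0.00988 and 0.0157). Its exons share 475 bases on the same strand with the annotated readthrough gene RPS10-NUDT3, which held 0 counts. How reads on the shared bases were assigned is not given in the sources used here. The 0 therefore does not show that Rps10 lost no reads to the overlap.

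Rps25, a head protein that internal ribosome entry sites depend on, had the lowest log2 fold change of the called members in Apc Eif3h against Apc. Its values were 112.3, 91.15, 104.1 and 101.5 CPM in WT, 177.9, 161.1, 147.7 and 178.4 CPM in Apc, and 264.3, 263.4, 181.2 and 209.8 CPM in Apc Eif3h. The Apc libraries were well above WT, and Apc Eif3h replicate 3 was barely above Apc. Its folds were 1.63 (adjusted p = 0.000583) and 1.38 (log2 0.47, SE 0.123, adjusted p = 0.04). The second Rps25 call held in 5 of 16 alternatives (adjusted p from 0.00679 to 0.131). Exons of Rps25 overlap Trappc4 by 462 bases and Ccdc84 by 206 bases on the opposite strand, and the strand setting of the counts is not given in the sources used here. Rps16, Rps18, Rps15 and Rps28 rose as well, with log2 fold changes of 0.50 to 0.77 in Apc against WT and 0.58 to 0.75 in Apc Eif3h against Apc. Rps28 overlapped between WT and Apc.

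Rps12 and Rps29 had wide errors. Rps12, a head protein, stood at 45.87, 31.26, 70.95 and 37.48 CPM in WT, at 74.8, 109.4, 66.3 and 129 CPM in Apc, and at 136.7, 238.1, 87.86 and 224.7 CPM in Apc Eif3h. Replicate 3 was the highest WT library and the lowest in both other groups, and neighbouring groups overlapped. The log2 fold change of Rps12 was 1.03 in Apc against WT (SE 0.335, adjusted p = 0.0207) and 0.86 in Apc Eif3h against Apc (SE 0.33, adjusted p = 0.14). The second became a call without Apc Eif3h replicate 3 (log2 1.09, adjusted p = 0.039), and the first was lost without WT replicate 2 (adjusted p = 0.0607), WT replicate 4 (0.0594) or Apc replicate 4 (0.0665), and with male libraries only (0.0648). In Apc Eif3h against WT it had the highest fold change of all members, 3.71 (adjusted p = 0.000542). Rps29, a small zinc-binding head protein, stood at 43.23, 30.55, 62.05 and 37.16 CPM in WT and 51.83, 85.18, 43.68 and 50.19 CPM in Apc. In Apc Eif3h it stood at 163.3, 141.3, 62.86 and 60.89 CPM, so replicates 1 and 2 were high and replicates 3 and 4 were near the top of the WT range. Its log2 fold changes of 0.42 (SE 0.341) and 0.89 (SE 0.339) did not pass, and 1.31 against WT did (adjusted p = 0.00602).

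Fau and Rps27a encode ribosomal proteins that are made as fusions. Fau (chromosome 19, 6057844 to 6059524) yields a ubiquitin-like protein and the 40S protein S30, and Rps27a yields ubiquitin and S27a. Fau stood at 215.3, 196.1, 257.2 and 240.8 CPM in WT, at 201.3, 211.2, 184.9 and 189.7 CPM in Apc, and at 298.1, 352.9, 302.9 and 258 CPM in Apc Eif3h. WT and Apc overlapped, and all Apc Eif3h libraries were above both. Its log2 fold change in Apc against WT was -0.21 (SE 0.109, adjusted p = 0.124), and 0.03 (adjusted p = 0.825) when libraries were scaled by their totals alone. In Apc Eif3h against Apc it was 0.62 (SE 0.109, adjusted p = 0.00767), at the median of the members, and 0.41 against WT (adjusted p = 0.00593). Rps27a rose 1.54-fold and then 1.53-fold (adjusted p = 0.00173 and 0.0161).

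Rps27 and Rps27l encode near-identical zinc-binding proteins, of which Rps27l is a known p53 target. Their coding sequences, from GENCODE M21 transcripts, are each 252 bases long and differ at 60 positions (76.2% identity). They are shown because these differences are what lets short reads be told apart between the paralogues. Capitals mark differing bases.
Rps27: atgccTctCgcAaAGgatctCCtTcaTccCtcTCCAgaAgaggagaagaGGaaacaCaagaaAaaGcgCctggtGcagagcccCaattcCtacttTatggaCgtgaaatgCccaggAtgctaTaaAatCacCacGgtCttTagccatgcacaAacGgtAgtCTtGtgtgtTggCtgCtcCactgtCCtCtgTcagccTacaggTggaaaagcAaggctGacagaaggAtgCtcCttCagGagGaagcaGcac
Rps27l: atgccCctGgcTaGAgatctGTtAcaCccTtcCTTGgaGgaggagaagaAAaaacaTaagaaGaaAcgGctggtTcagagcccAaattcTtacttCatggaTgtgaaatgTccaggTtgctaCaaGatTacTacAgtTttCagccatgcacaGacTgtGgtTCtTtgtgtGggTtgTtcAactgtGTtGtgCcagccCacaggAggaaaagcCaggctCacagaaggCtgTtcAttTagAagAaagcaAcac
Most differences fall singly and are spread along the whole sequence.

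Rps27l (chromosome 9, 66946086 to 66949516) had the lowest log2 fold change of the members in Apc Eif3h against Apc. It stood at 139.2, 115.6, 167.2 and 158.3 CPM in WT, at 174.9, 160.5, 146.2 and 173.2 CPM in Apc, and at 206.7, 195.5, 189.9 and 175.5 CPM in Apc Eif3h. WT and Apc overlapped, and the lowest Apc Eif3h library was just above the highest Apc one. Its log2 fold changes were 0.17 (SE 0.11, adjusted p = 0.201) and 0.23 (SE 0.11, adjusted p = 0.23), with 0.40 in Apc Eif3h against WT (adjusted p = 0.00756), the lowest of all members. With library totals alone the first was 0.42 (adjusted p = 0.00343).

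Rps27 (chromosome 3, 90212522 to 90213651) stood at 63.38, 59.53, 50.49 and 65.74 CPM in WT, at 84.87, 92.45, 63.1 and 117.3 CPM in Apc, and at 112.7, 197.1, 108.6 and 89.6 CPM in Apc Eif3h. Neighbouring groups overlapped, and WT and Apc Eif3h did not. Its log2 fold change was 0.58 in Apc against WT (SE 0.231, adjusted p = 0.0508), which passed in 5 of 16 alternatives, among them DESeq2 (adjusted p = 0.0314) and the fit without Apc replicate 3 (0.0237). It was 0.51 in Apc Eif3h against Apc (SE 0.229, adjusted p = 0.206). The annotated protein-coding copy Rps27rt shares 217 coding runs of 36 bases with Rps27 and held 41.1 ± 6.08 CPM in WT, 48.8 ± 4.41 in Apc, with 75.3 ± 13.8 in Apc Eif3h (SD, n = 4 each), so the split of reads between the 2 rows is uncertain.

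The ratio of Rps27l to Rps27 counts within a library was 2.20, 1.94, 3.31 and 2.41 in WT, 2.06, 1.74, 2.32 and 1.48 in Apc, and 1.83, 0.992, 1.75 and 1.96 in Apc Eif3h. The groups overlapped, and Apc Eif3h replicate 2 had the lowest ratio. The ratio changed by a factor of 0.775 in Apc against WT (two-sided exact permutation test over libraries, p = 0.171, adjusted over 3 comparisons 0.257). The factor was 0.845 in Apc Eif3h against Apc (exact p = 0.514, adjusted 0.514) and 0.655 in Apc Eif3h against WT (exact p = 0.0571, adjusted 0.171). With 70 arrangements the smallest p possible is 0.0286, and none of the 3 passed.

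Levels of different members can be compared per kilobase of exon, although annotated exons include retained introns that lengthen some genes. In WT these ran from 9.07 CPM per kilobase (Rps13) and 11.1 (Rps10) to 217 (Rps21), 237 (Fau) and 501 (Rps15). These levels differ far more between members than the members' fold changes do. Mouse ribosomal protein genes have many processed pseudogenes, and the reads came in pairs of 36 cycles. A median of 95.1% of the 36-base runs in a member's coding sequence also occur in another annotated gene, all of them in 11 members. The lowest shares were 14.8% in Rps3 and 51.6% in Rps9. Single runs of a member's coding sequence were compared, without its untranslated parts, so these are not shares of ambiguous read pairs. How reads that fit several places were handled is not given in the sources used here. Of the counts on a member and its sharing pseudogenes, the pseudogene rows held a median of 21.6% in WT, 19.5% in Apc, with 20.8% in Apc Eif3h. These were highest in Rps10 (75.3%, 74.4% and 74.6%) and Rps29 (72.7%, 70.3% and 64.9%). The part of the overlap with the readthrough gene in the low level of Rps10 and in its pseudogene share was not tested. Exons of other members overlap annotated genes too. Small nucleolar RNA genes overlap Rpsa (156 bases), Rps2 (134), Rps3 (145), Rps12 (129, 74 and 74), Rps13 (87) and Rps20 (68) on the same strand. Rps2, Rps12 and Rpsa had the highest fold changes in Apc against WT. On the opposite strand, protein-coding genes overlap Rps18 (156), Rps27a (160) and Rps28 (88), besides Rps25. The part of these overlaps in the counts was not tested.

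The 6 members with under 70% of runs shared, Rps3, Rps9, Rps14, Rps15, Rps21 and Rps27l, had 5 calls in each of the first 2 comparisons and 6 in Apc Eif3h against WT, all higher. Their median log2 fold changes were 0.54, 0.57 and 1.14, beside 0.62, 0.63 and 1.31 for the other 23. When pseudogene counts were added to their member, an alternative chosen after seeing the data, 25, 26 and 29 members were called higher. Rps29 then passed in Apc Eif3h against Apc, with a log2 fold change of 0.59 (adjusted p = 0.0342) in place of 0.89.

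**Figure D4:**
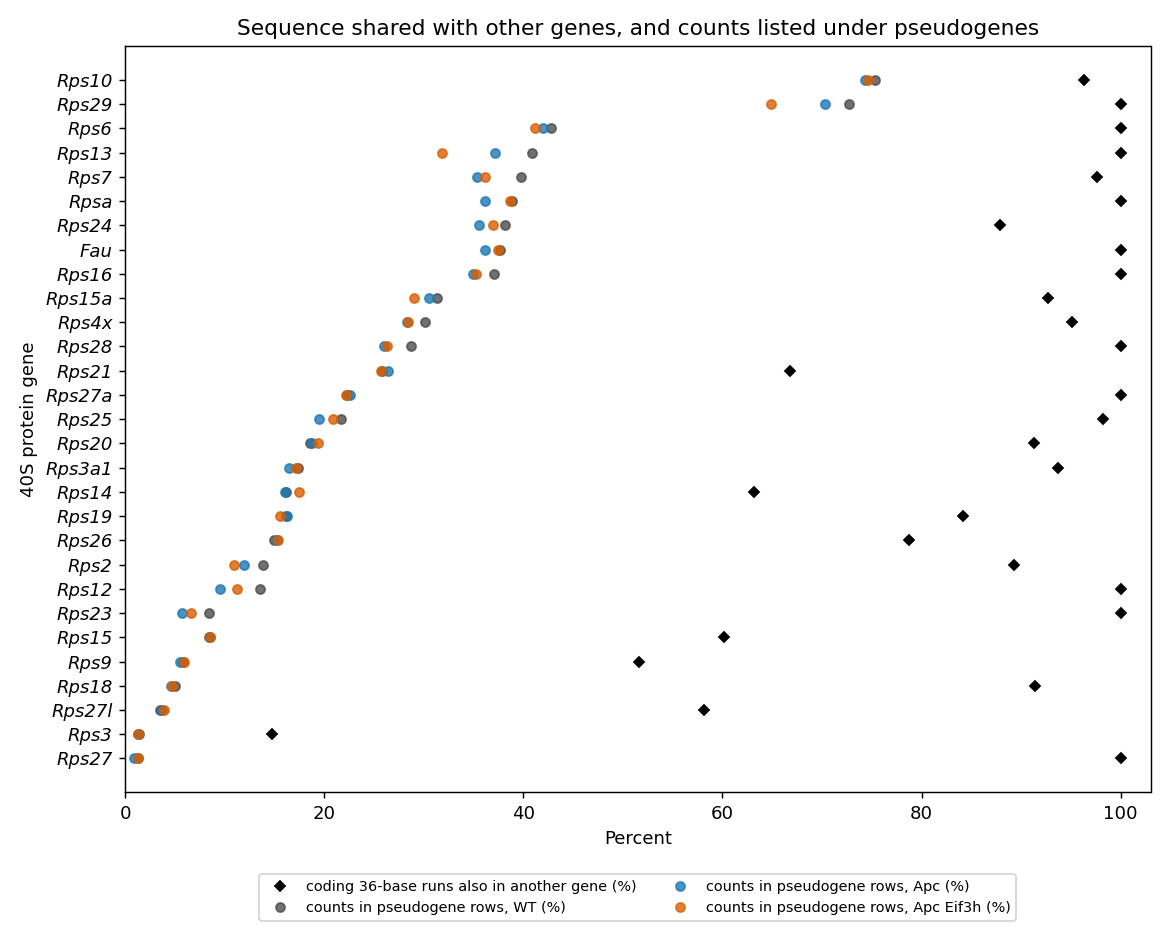
For each gene, the percent of 36-base runs of its coding sequence that also occur in another annotated gene (black diamonds) and the percent of counts on the gene and its sharing pseudogenes that were listed under the pseudogenes (circles by group). Rps10 and Rps29 have most of their counts under pseudogenes, Rps3 and Rps27 almost none, and the 3 groups lie close together in most rows. The circles leave out copies annotated as protein-coding. One of these, Rps27rt, held 41.1 CPM in WT beside 59.8 for Rps27.

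The other genes of the small subunit pathway came from fixed lists. Of 47 large subunit genes 46 rose in Apc against WT (median 0.63), Rpl24 being the one not called (log2 0.36, adjusted p = 0.103), and 40 rose in Apc Eif3h against Apc (median 0.60). That second count was 20 without Apc replicate 3, when 2.30% of all genes were called in either direction.

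Of the factors that assemble the subunit 49 of 52 rose in Apc against WT, with a median log2 fold change of 1.14. Fbl, which methylates ribosomal RNA, had 1.58 (adjusted p = 7.8e-06), Ltv1, a late 40S assembly factor, 1.23 (adjusted p = 1.02e-05), and Pno1, needed for the last cleavage of 18S RNA, 1.18 (adjusted p = 1.11e-05). The 3 not called were Riok1, Dcaf13 and Ngdn. Of the 52, 2 rose in Apc Eif3h against Apc, Rrp12 (0.67, adjusted p = 0.0271) and Rps19bp1 (0.45, adjusted p = 0.0335), with a list median of 0.25. Fbl had 0.20 there (adjusted p = 0.359). The count ranged from 0 to 19 when single libraries were left out, with 19 without Apc Eif3h replicate 3, and was 6 with DESeq2. Of all genes 7.05% were called in either direction in the main fit, 9.99% without Apc Eif3h replicate 3 and 10.1% with DESeq2. The lowest such share was 2.30%, without Apc replicate 3. Whether the assembly list differs from the 40S proteins was not tested.

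Of 30 mitochondrial small subunit genes, which serve a separate ribosome, 20 rose in Apc against WT (median log2 0.33) and 4 in Apc Eif3h against Apc (median 0.13), namely Mrps7, Mrps15, Mrps17 and Mrps26. The count of 4 was 0 without Apc replicate 3, and 1 without Apc Eif3h replicate 1 or 2. It was 2 without Apc replicate 2, Apc replicate 4 or Apc Eif3h replicate 4. Of all genes 2.30 to 4.27% were called in these fits, beside 7.05% in the main fit.

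A list of 24 genes held initiation and related factors of the 40S. Of these, 18 rose in Apc against WT (median log2 0.68), with the smallest p for Eif2d, Eif2s1 and Eif1ax. Between Apc Eif3h and Apc 4 rose and Eif3h fell. Eif1, which guards start codon choice, had a log2 fold change of 0.98 (adjusted p = 0.00266) after -0.01 in Apc against WT (adjusted p = 0.973). Eif5, the GTPase-activating factor for eIF2, had 0.77 (adjusted p = 0.00304), and the eIF3 subunits Eif3f and Eif3g had 0.41 and 0.47 (adjusted p = 0.0404 and 0.0255). The count of 4 became 9 with DESeq2, when 10.1% of all genes were called in either direction. It became 2 to 10 when single libraries were left out, with 2.30 to 9.99% of all genes called.

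Of 13 S6 kinases and regulators of TOP mRNAs, 5 rose in Apc against WT (median log2 0.15), namely Larp4 (0.54), Rps6kb1, which encodes S6 kinase 1 (0.56, adjusted p = 0.00027), Tia1 (0.60), Cnbp (0.48) and Larp1, the TOP mRNA regulator (0.64, adjusted p = 0.00107). Larp4b rose in Apc Eif3h against Apc (log2 0.39, adjusted p = 0.00708), the 1 call of this list. There were 3 calls without Apc Eif3h replicate 3 (9.99% of all genes called) or with DESeq2 (10.1%). Of 12 genes for 40S ubiquitination and quality control, 6 rose in Apc against WT, among them Zfp598, which encodes the mouse ZNF598 (0.39, adjusted p = 0.000455). Riok3 and Rnf14 fell, and 1, Usp10, which removes ubiquitin from 40S proteins, rose in Apc Eif3h against Apc (0.29, adjusted p = 0.031). This list had 0 such calls without Apc replicate 2, 3 or 4, or without Apc Eif3h replicate 1, 2 or 4, and 2 with DESeq2. Of all genes 2.30 to 4.27% were called in the fits with a library left out and 10.1% with DESeq2.

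**Figure D5:**
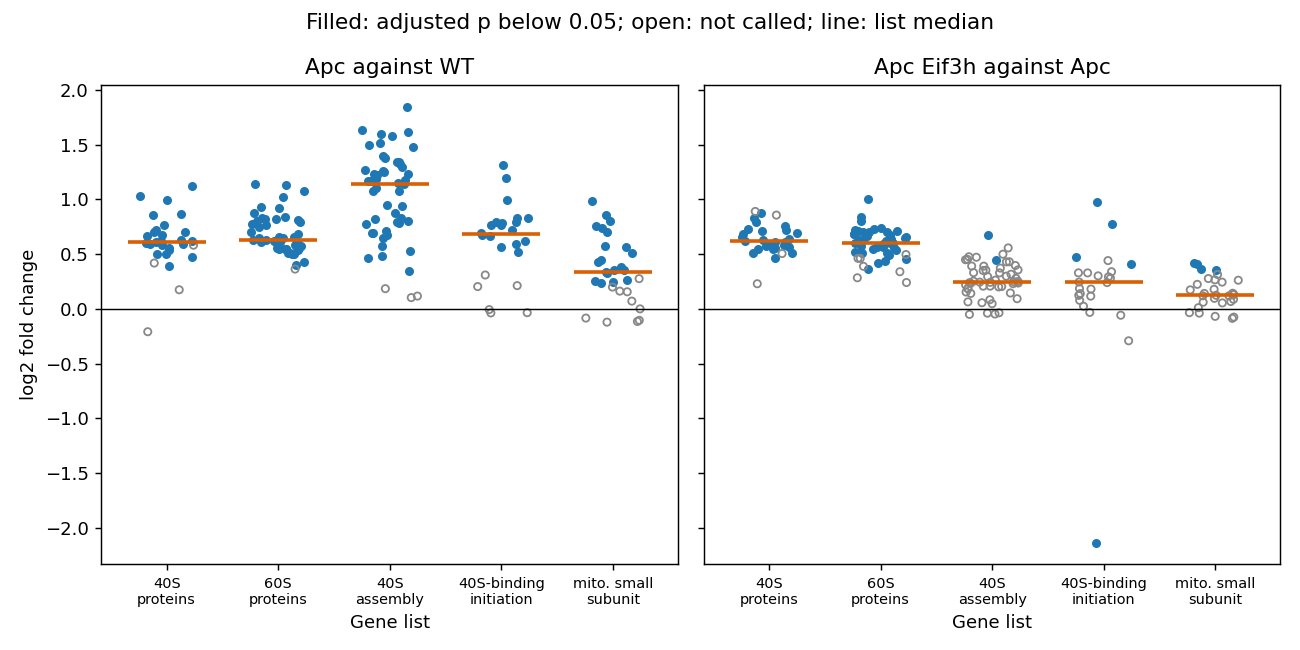
log2 fold change of every tested gene of each list (points) with the list median (bar), for Apc against WT and Apc Eif3h against Apc. The 40S and large subunit lists have medians of 0.61 and 0.63 on the left and 0.62 and 0.60 on the right, whereas assembly factors have 1.14 on the left and 0.25 on the right.

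Markers of cell types moved with Apc against WT. Of 7 proliferation markers 7 rose (median log2 1.48), with summed levels of 294.3 to 443.3 CPM in WT and 806.4 to 1031 in Apc, and of 6 stem and crypt markers 6 rose. Of 10 enterocyte markers 8 fell and of 7 T cell markers 7 fell, with T cell sums of 144.7 to 456.0 CPM in WT and 70.9 to 117.8 in Apc. Markers also fell for goblet cells (4 of 5), enteroendocrine cells (5 of 5), tuft cells (4 of 4) and macrophages and neutrophils (4 of 5). Of 5 Paneth markers 2 rose, with sums of 843.8 to 5462 CPM in WT and 3453 to 7083 in Apc. Between Apc Eif3h and Apc 0 of the 7 proliferation markers were called (median -0.18, sums of 715.7 to 1007 CPM in Apc Eif3h) and 0 of the 10 enterocyte markers. Of the stem markers Lgr5 and Smoc2 fell. Paneth markers summed to 899.4 to 5201 CPM in Apc Eif3h, with a median log2 fold change of -1.28 against Apc and 0 of 5 called. Fibroblast markers summed to 509.6 to 691.4 CPM in Apc Eif3h and to 699.9 to 1196 in Apc, with 0 of 5 called. B and plasma cell markers summed to 1443 CPM in Apc Eif3h replicate 2 and to 307.7 at the lowest in that group. The part of these shifts in the 40S values was not tested.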

How the data were processed

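RNA (RNeasy Micro) was made into TruSeq RNA libraries and sequenced in pairs of 36 cycles, per the labels' protocols. Values are raw counts per gene as the authors deposited them. FastQC 0.11.8, Trim Galore 0.6.4, HISAT2 2.1.0, featureCounts 1.6.4 and GRCm38 are named, with no roles, per the submitters' processing notes. The sources used here give no annotation, strand setting or treatment of multi-mapping reads.

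Libraries were grouped by title and genotype. Symbols and coordinates came from GENCODE M21 (GRCm38), with 181 identifiers unmatched (0.00226% of counts). Of 55421 rows 20439 were at 0 throughout. Counts were tested with edgeR 4.0.16 (R 4.3.3): filterByExpr by group, TMM, quasi-likelihood fit of all 12 libraries with 1 mean per group, Benjamini-Hochberg adjustment over 17394 genes, calls at an adjusted p below 0.05. The procedure was tested on simulated data. Standard errors are the absolute log2 fold change over the square root of F. Libraries of a group differed beyond counting error (chi-square per gene of 18.4 to 53.6).

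Alternatives were library totals only, RLE factors, DESeq2 1.42.0, a filter of at least 1 count, a replicate block, male libraries, the 2 groups alone, each library left out and, chosen after seeing the data, pseudogene counts added to members. Principal coding sequences were compared with all annotated transcripts in runs of 36 bases.

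The members and lists were chosen with earlier results of these data known. Values in every library were given by rule for Rpsa, Rps2, Rps6, Rps14, Rps19, Rps26, Rps27, Rps27l, Fau and the 3 members with the highest and the 3 with the lowest log2 fold change per comparison. For other lists, up to 3 called genes with the smallest p were named, and all of a count of 5 or fewer. Rps27rt, Med21, Gm11361 and the readthrough gene of Rps10 were named after their values were seen. A fixed list of related genes is not reported here.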

Additional observations from a re-analysis of the deposited data

Results flagged for a closer look

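In 4 of 87 sets of 4 libraries (29 genes in 3 groups) the lowest library lay far from the other 3. These were Rpsa in Apc replicate 3 (192.4 CPM, the nearest at 223), Rps3a1 in Apc replicate 3 (225.5 CPM, the nearest at 264.6), Rps13 in Apc Eif3h replicate 3 (46.29 CPM, the nearest at 90.44) and Rps20 in WT replicate 2 (241.2 CPM, the nearest at 304.6). The gap was 0.882, 0.92, 0.846 and 0.855 of the group's range. Chance flags about 1 in 20 such sets, and members of a library are not independent.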

How the results depend on the processing

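The number of members called higher in Apc against WT was 25, 22 with male libraries, 25 to 27 under the other settings and 23 to 26 when single libraries were left out. In Apc Eif3h against Apc it was 25, 14 with male libraries and 19 with library totals only or with the 2 groups alone. It was 22 to 26 under the other settings and 10 to 26 when single libraries were left out. Of all genes 2.30 to 9.99% were called in these last fits, beside 7.05% in the main fit. The number of members called higher was 29 in every alternative for Apc Eif3h against WT. The sole reversal was Fau in Apc against WT with library totals only (log2 0.02861). That scaling raised the median of all genes to 0.22 in Apc against WT and gave 6817 genes higher and 2393 lower in place of 4820 and 4192. In Apc Eif3h against WT the median was 0.17, with 6605 and 3175 in place of 5177 and 4882. Its calls in Apc Eif3h against Apc were 49.8% higher, in place of 60.6%. The cause of these changes was not tested, although dropping a library leaves fewer samples. Deviations of same-numbered libraries had correlations of -0.14 to 0.24, above those with other numbers in some cases and below in others. In Apc Eif3h against Apc, number 1 had 0.24 (other numbers at most -0.01) and number 3 had 0.005 (at most 0.31). With 4 libraries per group this cannot decide whether the numbers pair them. The replicate block gave 26, 22 and 29 members. Reads shared with pseudogenes limit how far levels of members can be compared with each other.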
